A study of Mus musculus with 14 samples.

Results

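Tumour cells grown in mice that lacked PAD4 were compared with tumour cells grown in wild-type (WT) mice, both without surgery. The comparison rests on 4 of the series' 14 RNA sequencing libraries, taken by their titles: 2 from PAD4 knockout (KO) hosts and 2 from WT hosts. The cells were MC-38, a mouse colon cancer line, carrying green fluorescent protein and collected by flow sorting from lung tumours on day 30. The labels give the genotype of the sorted cells as WT in both groups, so the knockout belongs to the host only. Another 4 tumour libraries, 2 from each host genotype, came from hosts given laparotomy (surgical opening of the abdomen) on days 0 and 10. They helped to estimate the spread and are set beside the results. Untreated MC-38 cultures (3 libraries) serve as a reference for what the line expresses by itself. The host strain and age, whether PAD4 was removed from all cells, how the lung tumours were started and the number of animals behind each library were not given in the sources used here. The p-values therefore measure the spread between these libraries, which may be technical.

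PAD4, encoded by Padi4, is a peptidylarginine deiminase that converts arginines of histones to citrulline. In neutrophils this loosens chromatin and allows its release as neutrophil extracellular traps (NETs), webs of DNA and granule proteins that can hold microbes and tumour cells. PAD4-deficient mice form few NETs, and in this series they serve as hosts in which surgery cannot readily raise NETs. The libraries without surgery show how the same cancer cells differed between the 2 kinds of host when no operation had been done.

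Gene counts summed to 10.8 and 29.5 M reads in WT control replicates 1 and 2 and to 27.0 and 26.2 M in KO control replicates 1 and 2. Levels below are CPM (counts scaled to a common library total, with TMM factors), and differences are log2 fold changes of KO minus WT control hosts with their standard error (SE). The labelled sort was checked against host markers. Ptprc (CD45), which defines leukocytes and stood at 0.04 CPM in control cultures, was at 18.7 and 224 CPM in the WT controls and at 12.7 and 26.0 CPM in the KO controls. Sftpc, the surfactant protein of alveolar type 2 cells, was at 44.5 and 378 CPM against 16.6 and 142 CPM. No tumour library was free of host RNA, and WT control replicate 2 stood apart from the other 3 control libraries with the most of both transcripts. Not every kind of host marker was highest there. Summed airway cell markers stood at 199 CPM in KO control replicate 2 and at 147 CPM in WT control replicate 2. The Y-linked Ddx3y, listed at 0 in every control culture, gave 2.83 and 28.4 CPM in WT and 1.86 and 6.30 CPM in KO controls. Xist, the RNA of the inactive X chromosome, was instead lowest in WT control replicate 2. It gave 37.7 and 6.07 CPM in WT and 28.1 and 17.0 CPM in KO controls. In such bulk samples, fewer cells of a type and less RNA per cell cannot be told apart. The part of this host RNA in the results was not tested.

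Padi4 was read first. It stood at 3.20 and 7.49 CPM in the WT controls and at 5.47 and 2.08 CPM in the KO controls, and the groups overlapped. The log2 fold change was -0.53 ± 0.51 (adjusted p = 0.648). The sorted cells carry an intact Padi4 of their own, so this level does not check the host label. Padi2, a widely expressed deiminase, stood at 1.46 and 8.90 CPM in WT and 2.17 and 2.15 CPM in KO controls. Padi3, known from hair follicles and skin, stood at 0.27 and 0.76 CPM against 1.56 and 1.28 CPM, with KO above WT. Neither passed the adjusted threshold (adjusted p = 0.388 and 0.316). Padi1 and Padi6 had too few counts to be tested, with at most 6 counts in any tumour library.

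Of 14615 genes tested, 17 passed an adjusted p of 0.05, which is 0.116%. In tumour cells from KO hosts 8 were higher (0.0547% of the tested genes) and 9 were lower (0.0616%). The higher genes were Myc, Hbegf, Ankrd1, Il12rb1, Irf1, Rasal2, Srgap3 and Nuak1. The lower genes were Gli1, Nfatc4, Igfbp6, Clstn3, Mfap3l, Thy1, Phyh, Olfr810 and Ptgir. Over the 14615 genes the median difference was -0.02 on the log2 scale. In 16 of the 17 genes both KO control libraries lay outside all 6 other tumour libraries, and the exception was Ankrd1. Over all tested genes, both KO controls lay above the other 6 in 7.49% and below them in 8.82%. The 17 genes were chosen by their difference from the WT controls, which are among those 6. Their count is therefore not independent of that choice and cannot be set against these shares. The number of calls depended on which libraries estimated the spread. It was 0 without WT laparotomy replicate 1, without WT laparotomy replicate 2 or without KO control replicate 1. It was 218 without WT control replicate 1, 46 without WT control replicate 2 (13 of the 17 among them) and 70 without KO control replicate 2 (10 of the 17 among them). Without either of the KO laparotomy libraries it was 54. With the 4 control libraries fitted alone it was 0 in edgeR (762 genes higher and 813 lower at an unadjusted p under 0.05), and limma voom with quality weights gave 5, of which 4 were among the 17. All 17 genes kept their direction in each of these fits. They had been chosen by their p in libraries that these fits share, which favoured this outcome.

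**Figure D1:**
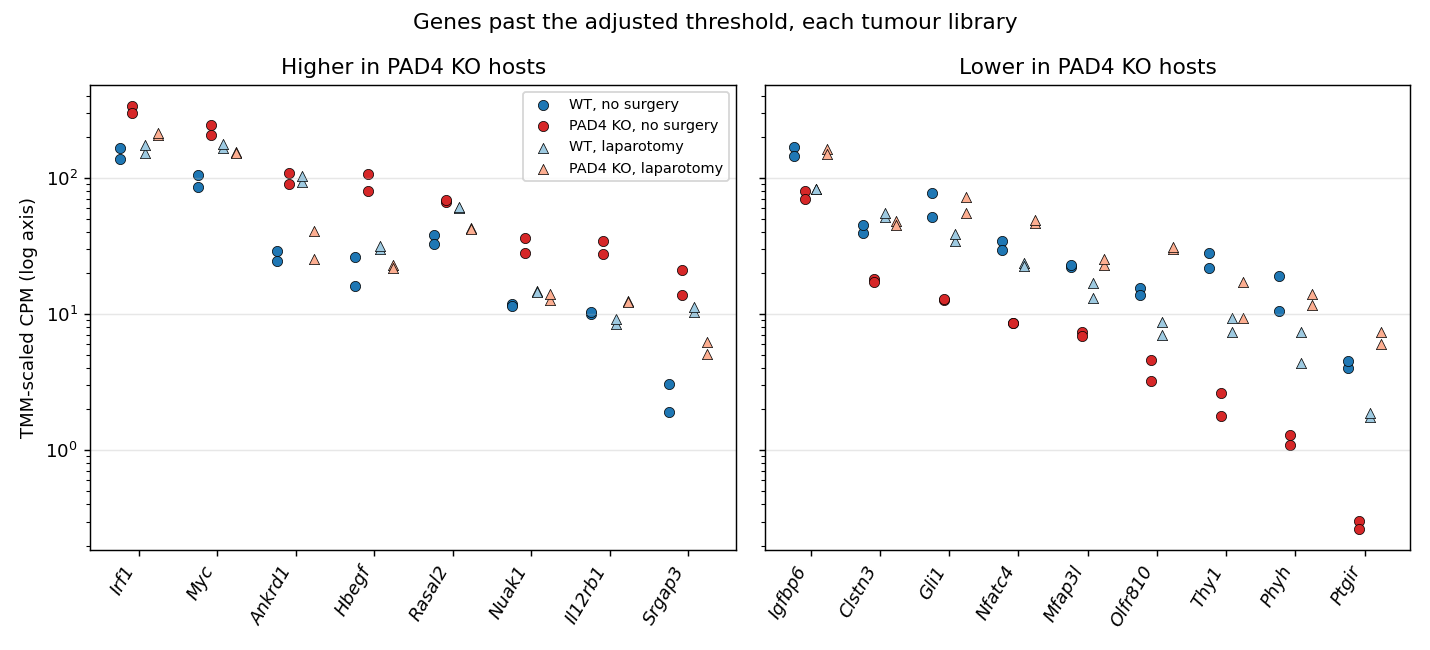
Levels of the 17 genes past the adjusted threshold in each of the 8 tumour libraries, as TMM-scaled CPM on a log axis; circles are hosts without surgery, triangles hosts with laparotomy, blue WT and red PAD4 KO, 1 point per library. The red circles lie apart from the blue circles in every gene, and in genes other than Myc the KO laparotomy triangles lie nearer to the blue circles than to the red ones, as for Gli1 at 71.6 and 54.7 CPM.

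Growth and stretch-related genes were among the higher ones. Myc (chromosome 15, 61985391 to 61990374, GRCm38) encodes the transcription factor that drives growth, ribosome production and cell cycle genes. Its level was 85.8 and 104 CPM in the WT controls and 241 and 207 CPM in the KO controls. Both KO libraries were above both WT libraries with no overlap, and the 4 laparotomy libraries lay between them at 151 to 176 CPM. Myc was 2.36-fold higher in KO hosts (log2 1.24 ± 0.13, adjusted p = 0.0388). Control cultures held 125 CPM, a level scaled separately from the tumours. Hbegf encodes a membrane-anchored ligand of the EGF receptor that is shed to act on neighbouring cells. It stood at 15.9 and 26.0 CPM in WT and 106 and 79.2 CPM in KO controls. The KO controls were the highest of all tumour libraries, since hosts with laparotomy gave 21.7 to 31.4 CPM. The rise was 4.36-fold (log2 2.13 ± 0.24, adjusted p = 0.0388).

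Ankrd1 (chromosome 19, 36111961 to 36120099, minus strand) encodes an ankyrin repeat protein of muscle sarcomeres and nuclei and is a widely used readout of YAP and TEAD, the transcription machinery that responds to stretch and cell spreading. It stood at 29.1 and 24.6 CPM in WT controls and at 90.1 and 108 CPM in KO controls, a rise of 3.71-fold (log2 1.89 ± 0.22, adjusted p = 0.0388). The groups did not overlap. The WT laparotomy libraries were as high as the KO controls, at 92.3 and 103 CPM, and the KO laparotomy libraries were near the WT controls, at 40.6 and 25.2 CPM. Its adjusted p was 0.06 without WT control replicate 2 and 0.0524 without KO control replicate 2.

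Promoters of the called genes were read from RefSeq on GRCm38.p6, as the 250 bases before and 50 after each annotated start. Of the 17 genes, 11 had an entry. The Ankrd1 promoter and that of Irf1 are shown because they hold the motif of the pathway whose gene lists stood higher in the KO controls. In each run, read 5′ to 3′ along the gene, capitals mark the motif, which was searched on both strands. The Ankrd1 window, chr19:36119795-36120094 on the minus strand, holds the TEAD motif GGAATG at 2 places that do not overlap. The Irf1 window, chr11:53769764-53770063 on the plus strand, holds the interferon-gamma activated site (GAS, letters TTCNNNGAA).
Ankrd1: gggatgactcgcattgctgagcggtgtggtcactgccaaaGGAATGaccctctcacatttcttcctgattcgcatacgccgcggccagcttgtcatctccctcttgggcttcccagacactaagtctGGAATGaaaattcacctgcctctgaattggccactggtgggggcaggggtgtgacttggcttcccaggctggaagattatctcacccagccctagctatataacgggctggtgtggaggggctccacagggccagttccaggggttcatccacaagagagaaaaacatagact
Irf1: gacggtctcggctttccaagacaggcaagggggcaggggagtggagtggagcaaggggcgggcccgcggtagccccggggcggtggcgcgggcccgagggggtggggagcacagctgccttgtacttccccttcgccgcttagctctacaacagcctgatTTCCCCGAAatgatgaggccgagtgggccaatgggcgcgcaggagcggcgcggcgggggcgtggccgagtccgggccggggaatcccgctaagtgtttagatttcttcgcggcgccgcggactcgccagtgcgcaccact
The TEAD letters occur in 14.7% of all 32851 promoter windows and the GAS letters in 8.30%. Among the 11 called genes with a window, Ankrd1 was the 1 with a TEAD match and Irf1 the 1 with a GAS match. The cAMP response element TGACGTCA, present in 1.79% of windows, was found in 1, that of Clstn3. No match was found for the interferon-stimulated response element (3.44% of windows), the E-box CACGTG bound by Myc (7.15%), the AP-1 site TGANTCA (7.81%) or the GLI site GACCACCCA (0.253%). A match is a description of the letters and does not show a bound site.

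The list of 12 YAP and TEAD genes had 5 members higher and 1 lower at an unadjusted p under 0.05, beside 7.15% higher and 9.19% lower among all genes. Its median log2 fold change was 0.36. Ankrd1 was the 1 member past the adjusted threshold. Cyr61 (Ccn1), a secreted matricellular protein, stood at 436 and 493 CPM in WT and 796 and 783 CPM in KO controls. The libraries were close within each group and did not overlap, with a log2 difference of 0.76 ± 0.12 (adjusted p = 0.0741). The receptor tyrosine kinase Axl stood at 253 and 241 CPM against 500 and 353 CPM (log2 0.79 ± 0.16, adjusted p = 0.107). The DNA-binding partner Tead1 had a log2 difference of 0.50 ± 0.13 and the coactivator Wwtr1 (TAZ) one of 0.44 ± 0.15, while Yap1 itself stood at 0.11. The member at an unadjusted p under 0.05 in the other direction was Ctgf (Ccn2), a close relative of Cyr61, at 16.7 and 14.6 CPM in WT and 1.14 and 5.96 CPM in KO controls. Ctgf is listed at 0 in the control cultures, where Cyr61 stood at 51.0 CPM.

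In the list of Myc with 14 growth and ribosome-biogenesis genes, 9 of 15 were higher (7.15% of all genes) and 1 lower (9.19%) at an unadjusted p under 0.05. The list median was 0.26. Myc was the 1 past the adjusted threshold. Odc1, the rate-limiting enzyme of polyamine synthesis and a known Myc target, stood at 144 and 146 CPM in WT and 224 and 203 CPM in KO controls (log2 0.56 ± 0.11, adjusted p = 0.107). Nop58, a core protein of box C/D small nucleolar RNPs, stood at 398 and 374 CPM against 486 and 547 CPM (log2 0.42 ± 0.11). These differences were a fraction of that of Myc, and the nucleolar proteins Ncl and Npm1 had 0.36 ± 0.14 and 0.35 ± 0.12. Polr1b, a subunit of RNA polymerase I, was the member on the other side, at -0.28 ± 0.12. The count of higher members was 4 without WT control replicate 2, without WT laparotomy replicate 1 or without WT laparotomy replicate 2, and 3 without KO control replicate 2. Of 28 cell cycle genes, 1 was higher and 2 were lower at an unadjusted p under 0.05 (median 0.03).

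Irf1 (chromosome 11, 53770014 to 53778374) encodes a transcription factor that interferon-gamma induces and that switches on antigen presentation and GBP genes. It stood at 138 and 165 CPM in WT controls and at 335 and 300 CPM in KO controls. All 6 other tumour libraries, at 138 to 213 CPM, were below the KO controls. The rise was 2.09-fold (log2 1.07 ± 0.13, adjusted p = 0.0388). Il12rb1 encodes the receptor chain shared by interleukins 12 and 23. Its level was 10.1 and 10.4 CPM in WT and 34.2 and 27.6 CPM in KO controls. No other tumour library exceeded 12.4 CPM, and the rise was 3.02-fold (log2 1.59 ± 0.19, adjusted p = 0.0388). Il12rb1 is best known from T and NK cells, but control cultures held it at 19.1 CPM. The adjusted p of Il12rb1 was 0.06 without WT control replicate 2.

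Among 30 interferon response genes, 11 were higher (7.15% of all genes) and 0 lower (9.19%) at an unadjusted p under 0.05 by edgeR. In 15 both KO controls were above both WT controls (22.2% of all genes). The list median was 0.24, and Irf1 was the 1 gene past the adjusted threshold. The GTPase Gbp2 stood at 104 and 91.3 CPM in WT and 198 and 213 CPM in KO controls (log2 1.08 ± 0.18, adjusted p = 0.0796). The chemokine Cxcl10, which attracts T cells, stood at 198 and 161 CPM against 350 and 337 CPM (log2 0.94 ± 0.19, adjusted p = 0.107). In both genes the 2 KO libraries were close to each other and above the WT libraries. The antiviral genes Ifit3, Isg15 and Ifit1 had smaller log2 differences of 0.61, 0.55 and 0.42. The count depended on the WT controls: without replicate 2 of them, 4 members were higher and 4 lower, with a median of 0.09, and without replicate 1, 19 were higher with a median of 0.45. The count of higher members was also lower without KO control replicate 1 (4), WT laparotomy replicate 1 (6) or WT laparotomy replicate 2 (7).

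Of 13 genes of MHC class I presentation, 4 were higher (7.15% of all genes) and 1 was lower (9.19%) at an unadjusted p under 0.05. The list median was 0.14, or 0.06 without WT control replicate 2 and 0.05 without KO control replicate 1. Erap1, which trims peptides in the endoplasmic reticulum, stood at 125 and 104 CPM in WT and 196 and 177 CPM in KO controls (log2 0.70 ± 0.13, adjusted p = 0.0956). The immunoproteasome subunit Psmb10 stood at 140 and 131 CPM against 220 and 193 CPM (log2 0.61 ± 0.14). Both genes were higher in the 2 KO controls than in the other 6 tumour libraries. H2-Q4, a class I chain, had a log2 difference of 0.33 ± 0.10, and H2-T23 stood at -1.88 ± 0.74 with 52.1 CPM in WT control replicate 2 and 3.37 to 12.6 CPM in the other 7 tumour libraries. Class I, Gbp and Ifit genes have near-identical relatives, and reads that fit more than 1 place were counted apart as multimapping, so their levels are uncertain. The checkpoint ligand Cd274 (PD-L1) stood at 24.4 and 29.2 CPM in WT and 38.1 and 35.9 CPM in KO controls (log2 0.46 ± 0.15, adjusted p = 0.215). The 8 MHC class II genes, which leukocytes express, had a median of -1.18 with 0 higher and 0 lower at an unadjusted p under 0.05 by edgeR. The list median was 0.31 without WT control replicate 2. Its Cd74 stood at 54.4 and 294 CPM in WT and 43.5 and 96.1 CPM in KO controls.

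Another 3 genes that rose encode regulators of small GTPases and of kinase signalling. Srgap3, a Rac GTPase-activating protein that shapes membrane protrusions, stood at 1.92 and 3.07 CPM in WT and 21.0 and 13.7 CPM in KO controls. The WT controls were the lowest of the 8 tumour libraries and the KO controls the highest, and the rise was 6.83-fold (log2 2.77 ± 0.35, adjusted p = 0.0433). Rasal2, a Ras GTPase-activating protein, stood at 37.8 and 32.7 CPM against 66.5 and 69.0 CPM, 1.92-fold higher (log2 0.94 ± 0.12, adjusted p = 0.0433). Nuak1, a kinase of the AMPK family that acts on cell adhesion and is activated by LKB1, stood at 11.8 and 11.3 CPM against 36.2 and 27.8 CPM. The other 4 tumour libraries held 12.6 to 14.8 CPM of it, near the WT controls, and the rise was 2.77-fold (log2 1.47 ± 0.19, adjusted p = 0.0457). Rasal2 and Nuak1 had adjusted p of 0.0835 and 0.0828 without WT control replicate 2, and Rasal2 had 0.0524 without KO control replicate 2. All 8 genes that rose stood at 10 CPM or more in control cultures.

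Among the genes that fell, Gli1 (chromosome 10, 127329882 to 127341974, minus strand) is the transcription factor and standard readout of Hedgehog signalling. It stood at 76.5 and 51.6 CPM in WT controls and at 12.6 and 12.9 CPM in KO controls. The KO controls were nearly equal and below every other tumour library, where the lowest value was 34.5 CPM. Gli1 was 4.99-fold lower (log2 -2.32 ± 0.22, adjusted p = 0.0372), and control cultures held 48.2 CPM. Nfatc4 (chromosome 14, 55823144 to 55833943) encodes a transcription factor that the calcium-dependent phosphatase calcineurin sends to the nucleus. It had the smallest adjusted p of all genes, 0.0156. Its level was 34.2 and 29.5 CPM in WT and 8.62 and 8.60 CPM in KO controls, 3.69-fold lower (log2 -1.88 ± 0.14). The KO laparotomy libraries were the highest, at 46.4 and 48.9 CPM. In control cultures Nfatc4 stood at 1.10 CPM, below all tumour libraries.

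Igfbp6, a secreted protein that binds insulin-like growth factor 2, stood at 167 and 144 CPM in WT and 79.1 and 69.4 CPM in KO controls. The WT laparotomy libraries, at 82.1 and 82.3 CPM, were close to the KO controls, and the fall was 2.09-fold (log2 -1.07 ± 0.12, adjusted p = 0.0388). Clstn3 (calsyntenin 3), a membrane protein known from synapses and adipocytes, stood at 39.2 and 45.1 CPM against 18 and 17.1 CPM. The other tumour libraries held 44.6 to 54.6 CPM of Clstn3, so only the 2 KO controls were low, by 2.41-fold (log2 -1.27 ± 0.13, adjusted p = 0.0388). Mfap3l stood at 22.2 and 22.9 CPM against 7.33 and 6.83 CPM, a fall of 3.18-fold (log2 -1.67 ± 0.19, adjusted p = 0.0388). Without KO control replicate 2, the adjusted p of Igfbp6 and of Mfap3l was 0.0524.

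The other 4 genes that fell were at under 1 CPM in control cultures. Thy1 (CD90), a surface glycoprotein of T cells, fibroblasts and other stromal cells, was listed at 0 in the cultures and stood at 21.6 and 27.9 CPM in WT and 1.79 and 2.64 CPM in KO controls. The groups were far apart, with a fall of 11.2-fold (log2 -3.48 ± 0.38, adjusted p = 0.0388), and the laparotomy libraries lay between them at 7.31 to 17.2 CPM. Phyh, the peroxisomal enzyme that starts the breakdown of phytanic acid, stood at 10.5 and 19.0 CPM against 1.10 and 1.28 CPM. It was lowest in the KO controls and 12.4-fold lower than in WT controls (log2 -3.63 ± 0.43, adjusted p = 0.0388). Olfr810, annotated as an olfactory receptor on chromosome 10 (129787289 to 129794917), stood at 15.6 and 13.7 CPM against 4.56 and 3.21 CPM (log2 -1.91 ± 0.24, adjusted p = 0.0433). It belongs to a large family of similar genes, and the unstranded counts cannot separate overlapping transcripts of the other strand. In the strand-specific counts its log2 difference was -1.91 (adjusted p = 0.0491). Its identity remains uncertain. Ptgir, the prostacyclin receptor, was named after its values were seen, since its mean was under 5 CPM. It stood at 4.02 and 4.49 CPM in WT and 0.30 and 0.26 CPM in KO controls (log2 -3.88 ± 0.47, adjusted p = 0.0402). With the strand-specific counts its adjusted p was 0.0957, and without KO control replicate 2 it was 0.0551. The adjusted p of Phyh and Olfr810 without that library was 0.0539 and 0.0524.

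The lower median of genes with little expression in culture depended on WT control replicate 2, the only library left out for this comparison. The 1528 tested genes below 0.1 CPM in control cultures had a median log2 fold change of -1.05, and 19.3% of them were lower at an unadjusted p under 0.05. Without WT control replicate 2, a fit chosen after the data were seen, the median of the 1511 of them still tested was 0.04 and 5.76% were lower. The 2454 genes at 100 CPM or more had a median of 0.07, with 12.6% higher and 6.36% lower, and 0.04 without that library. The summed level of 12 pan-leukocyte markers was 184 and 1165 CPM in WT and 292 and 289 CPM in KO controls, so WT control replicate 1 was below both KO libraries. This order turned on Arhgdib, which stood at 40.1 CPM in WT control replicate 1 and at 186 and 118 CPM in the KO controls. Without WT control replicate 2 the log2 difference was -3.28 for Thy1, -3.13 for Phyh, -2.01 for Olfr810 and -3.80 for Ptgir. That fit keeps the KO controls by which these genes were chosen. The part of host RNA in their values was not tested.

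**Figure D2:**
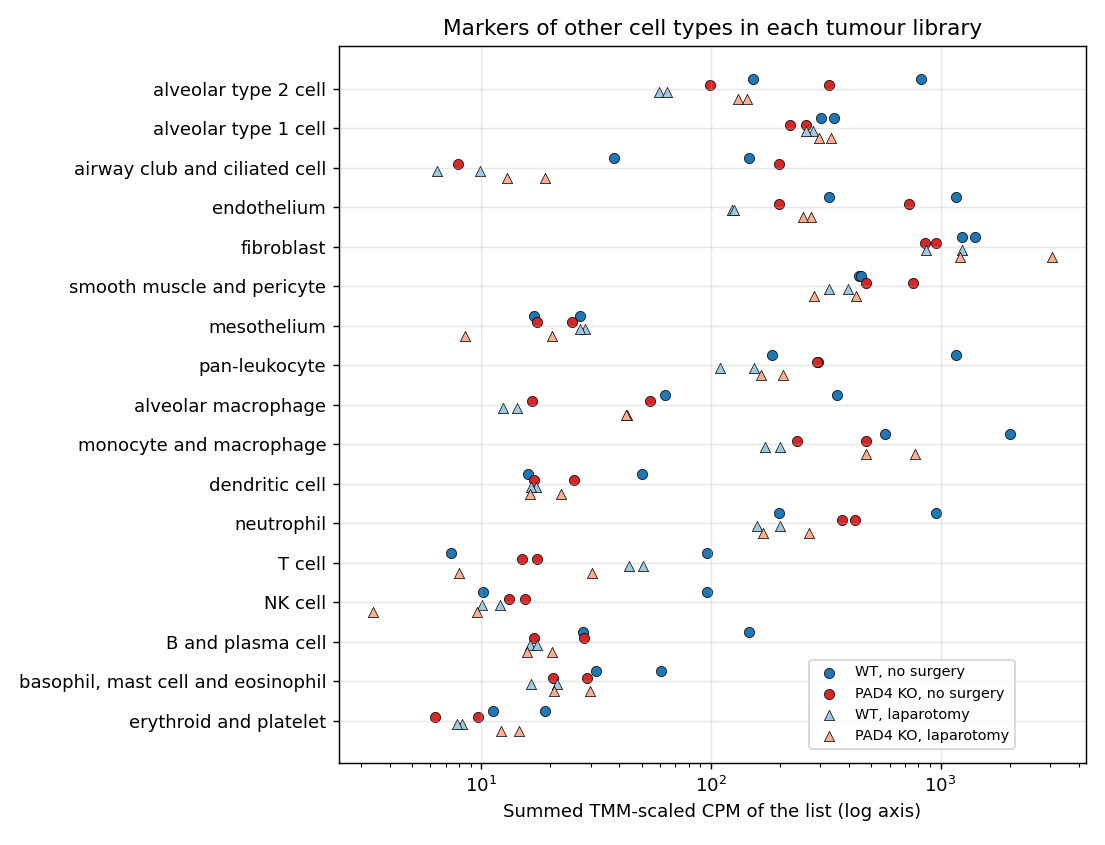
Summed TMM-scaled CPM (log axis) of the markers of each other cell type in the 8 tumour libraries, 1 point per library, with symbols by host genotype and surgery. WT control replicate 2 is the right-most point in each leukocyte list, for example at 2010 CPM for monocytes and macrophages and 960 CPM for neutrophils.

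No marker on the host cell lists passed the adjusted threshold. Thy1, described above, was not on these lists. Of 18 monocyte and macrophage markers, 12 were lower at an unadjusted p under 0.05 (9.19% of all genes) and 0 higher by edgeR (median -1.73), and in 15 both KO controls were below both WT controls (22.2% of all genes). Fcgr1, the high-affinity IgG receptor, stood at 6.76 and 12.2 CPM in WT and 1.14 and 1.62 CPM in KO controls (log2 -2.78 ± 0.53, adjusted p = 0.0956). Ly6c2, which marks inflammatory monocytes, stood at 4.93 and 29.8 CPM against 0.91 and 1.09 CPM (log2 -4.12 ± 0.86, adjusted p = 0.108). In both genes the 2 KO libraries were below each of the WT libraries, and without WT control replicate 2 the log2 differences were -2.29 for Fcgr1 (adjusted p = 0.209) and -2.29 for Ly6c2 (adjusted p = 0.305). The summed level of this list was 576 and 2010 CPM in WT and 236 and 476 CPM in KO controls. Of the 18 markers, 3 were lower without WT control replicate 2, where the median was -0.68, and 2 without KO control replicate 1. Over the 8 fits without 1 library the count ran from 2 to 15.

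Neutrophil markers concern the cell that makes NETs. Of 15 tested, 8 were lower at an unadjusted p under 0.05 (9.19% of all genes) and 0 higher by edgeR (median -3.04). The collagenase Mmp8 stood at 2.01 and 26.0 CPM in WT and 0.42 and 0.94 CPM in KO controls (log2 -4.36 ± 1.15, adjusted p = 0.167), and without WT control replicate 2 its log2 difference was -1.56 (adjusted p = 0.656). The alarmin S100a8 stood at 11.7 and 144 CPM against 3.30 and 25.9 CPM, and here the groups overlapped. The summed neutrophil list was nonetheless 198 and 960 CPM in WT and 424 and 374 CPM in KO controls, because Mmp9 alone gave 407 and 252 CPM in the KO libraries. Mmp9 was at 112 and 230 CPM in WT controls. Of the 15 markers, 1 was lower and 1 higher without WT control replicate 2, where the median was -0.65, and 3 were lower without KO control replicate 1. Over the 8 fits without 1 library, 1 to 12 were lower.

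Of 13 alveolar macrophage markers, 7 were lower at an unadjusted p under 0.05 (median -2.63), with Mrc1 at 8.86 and 29.5 CPM in WT and 2.01 and 4.83 CPM in KO controls. The count was 1 without WT control replicate 2, and 1 to 10 over the 8 fits without 1 library. In the pan-leukocyte list 8 of 12 were lower (median -2.22), against 1 lower and 1 higher without WT control replicate 2 (median -0.19) and 1 to 11 lower over the 8 fits. For B and plasma cells 6 of 10 were lower, 0 without WT control replicate 2 and 0 to 9 over the 8 fits. Among all genes 9.19% were lower at that level. T cell markers had 1 of 12 lower (median -1.82) and NK cell markers 3 of 7 (median -3.09). Left without WT control replicate 2, T cell markers had 2 higher and 0 lower (median 1.87) and NK cell markers 0 lower (median 0.61).

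Markers of resident lung tissue also differed with WT control replicate 2 and with each KO control library. All 20 endothelial markers had a negative log2 fold change (median -0.78), of which 1 was lower at an unadjusted p under 0.05, and 10 of 12 alveolar type 2 markers were negative (median -1.65), with 1 higher and 1 lower at that level. Left without WT control replicate 2, the medians were 0.67 and 0.33. They were -2.80 and -3.65 without KO control replicate 2, and -0.10 and -0.82 without KO control replicate 1. The endothelial sum was 327 and 1167 CPM in WT and 197 and 730 CPM in KO controls, with replicate 2 the higher in both groups. Among all genes 9.19% were lower and 7.15% higher at an unadjusted p under 0.05. Fibroblast markers had 3 of 13 lower (median -0.84), and smooth muscle and pericyte markers 4 of 10 lower and 1 higher (median -0.86). Their medians were -0.05 and -0.66 without WT control replicate 2. They were -3.03 and -1.11 without KO control replicate 2, and -0.25 and -0.45 without KO control replicate 1.

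**Figure D3:**
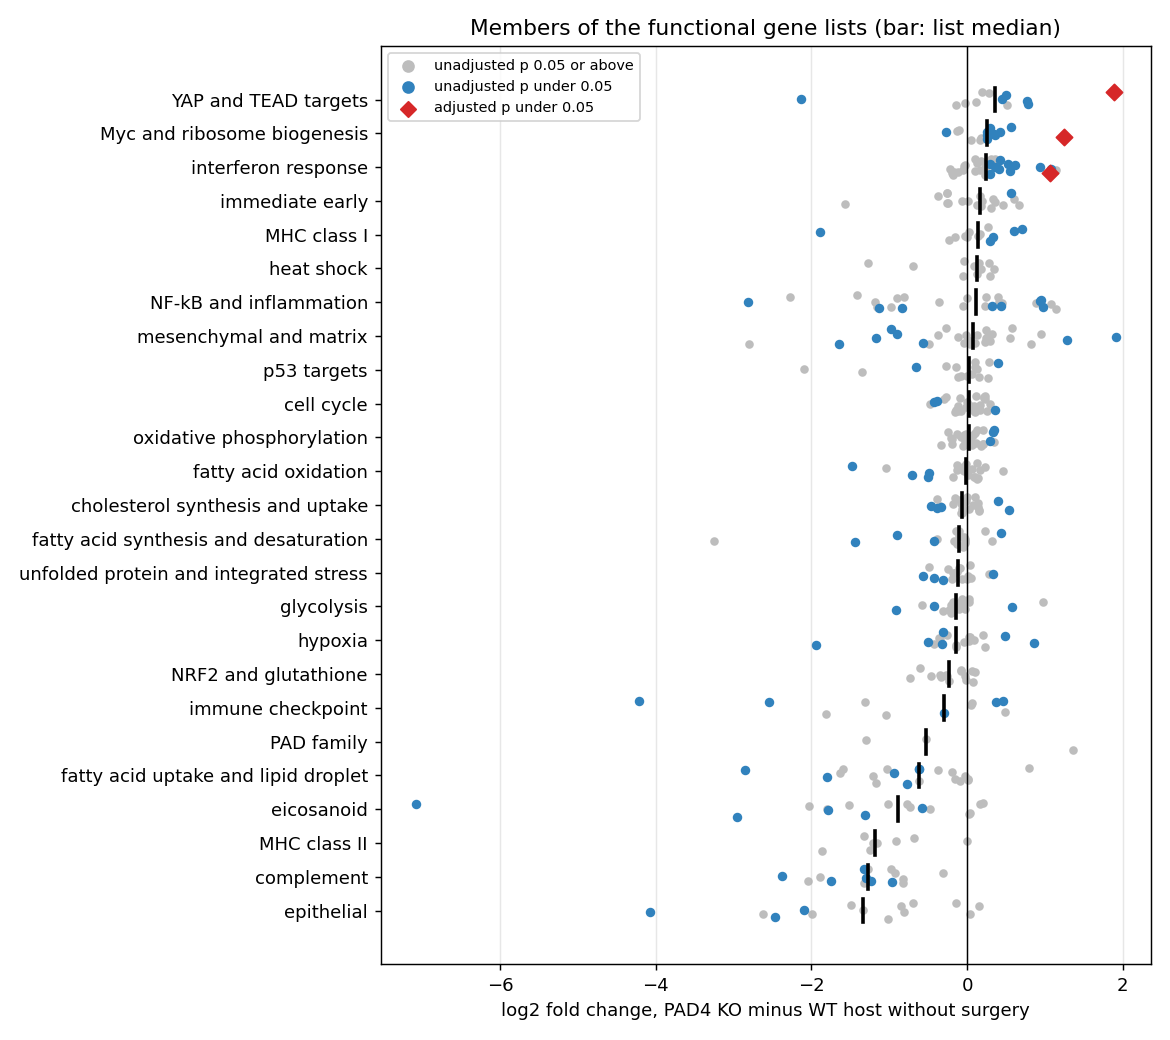
Log2 fold change, PAD4 KO minus WT hosts without surgery, of every tested member of each functional gene list (1 point per gene, grey at an unadjusted p of 0.05 or above, blue under it, red diamonds past the adjusted threshold), with a bar at the list median. YAP and TEAD, Myc and interferon lists have the highest medians, at 0.36, 0.26 and 0.24, and complement and epithelial lists the lowest, at -1.28 and -1.34.

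None of the complement genes passed the adjusted threshold. All 15 tested members had a negative log2 fold change, and in 12 both KO controls were below both WT controls (22.2% of all genes). At an unadjusted p under 0.05 by edgeR, 6 were lower, beside 9.19% of all genes. The list median was -1.28, or -1.06 without WT control replicate 2. C1ra, a protease of the C1 complex, stood at 58.8 and 50.2 CPM in WT and 27.0 and 28.8 CPM in KO controls (log2 -0.97 ± 0.16, adjusted p = 0.0771). Its partner C1s1 stood at 134 and 84.4 CPM against 37.2 and 55.9 CPM (log2 -1.23 ± 0.27, adjusted p = 0.131). Cfb, the factor B protease of the alternative pathway, stood at 233 and 123 CPM against 56.1 and 85.8 CPM (log2 -1.32 ± 0.34). For these 3 genes WT control replicate 1 was the higher of the WT pair. The part of host RNA in their levels was not tested. C1ra and C1s1 are expressed by the line itself, at 51.1 and 99.3 CPM in control cultures, while Cfb was at 1.44 CPM there. C1qa and C3ar1, which macrophages express, had log2 differences of -1.30 and -2.38. Over the 8 fits without 1 library, 4 to 9 members were lower at an unadjusted p under 0.05, with 4 without WT control replicate 2.

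Of 16 genes of prostaglandin and leukotriene metabolism, 5 were lower (9.19% of all genes) and 0 higher (7.15%) at an unadjusted p under 0.05 by edgeR. The list median was -0.89, or -0.22 without WT control replicate 2. Pla2g4a, the cytosolic phospholipase that frees arachidonic acid from membranes, stood at 50.2 and 31.9 CPM in WT and 12.2 and 11.5 CPM in KO controls. The KO pair was below all other tumour libraries, with a log2 difference of -1.79 ± 0.28 (adjusted p = 0.0741). Ptgs1, the constitutive cyclooxygenase, stood at 58.6 and 26.1 CPM against 4.75 and 6.08 CPM (log2 -2.96 ± 0.45, adjusted p = 0.0741). Alox5ap, the membrane partner of 5-lipoxygenase, stood at 122 and 168 CPM against 46.8 and 69.8 CPM (log2 -1.31 ± 0.25, adjusted p = 0.107). These genes were named for the smallest p of the list, which favoured KO libraries that lie below the WT libraries. Of the 16 genes, 12 had a negative and 4 a positive log2 fold change. Both KO controls were below both WT controls in 8 and above them in 2 (22.2% of all genes each way). Over the 8 fits without 1 library, the log2 difference ran from -2.084 to -1.415 for Pla2g4a and from -3.435 to -2.252 for Ptgs1. The adjusted p over the 8 fits ran from 0.0351 to 0.329 for Pla2g4a and from 0.0252 to 0.361 for Ptgs1, and with the 4 control libraries alone it was 0.301 for each.

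The series concerns cancer cell lipid metabolism. None of the members of the 4 lists of lipid synthesis, uptake and oxidation passed the adjusted threshold. For fatty acid uptake and lipid droplets, 6 of 20 genes were lower (9.19% of all genes) and 0 higher (7.15%) at an unadjusted p under 0.05 by edgeR (median -0.62). With WT control replicate 2 left out, 1 was lower and 1 higher and the median was -0.14, and over the 8 fits without 1 library 1 to 8 were lower. The fatty acid transporter Slc27a4 stood at 79.6 and 75.7 CPM in WT and 50.8 and 50.4 CPM in KO controls (log2 -0.62 ± 0.11, adjusted p = 0.0827). Replicates of this gene were nearly equal within each group, and both KO libraries were below all other tumour libraries. Dgat1, which makes triglyceride, stood at 33.6 and 51.5 CPM against 21.2 and 28.8 CPM (log2 -0.77 ± 0.24).

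In fatty acid oxidation 4 of 24 genes were lower (9.19% of all genes) and 0 higher (7.15%) at an unadjusted p under 0.05, with a median of -0.02. Acadm, the medium-chain acyl-CoA dehydrogenase, stood at 88.1 and 102 CPM in WT and 57.1 and 59.4 CPM in KO controls (log2 -0.71 ± 0.18, adjusted p = 0.149). Cpt1a, which commits fatty acids to mitochondria, stood at 58.0 and 68.3 CPM against 43.8 and 46.7 CPM (log2 -0.48 ± 0.14, adjusted p = 0.191). For both genes the WT and KO libraries did not overlap. Among 19 genes of fatty acid synthesis and desaturation 1 was higher and 3 were lower (median -0.10). The desaturase Scd1 stood at 184 and 188 CPM against 132 and 146 CPM (log2 -0.42 ± 0.11), whereas Acaca, which makes malonyl-CoA, had 0.44 ± 0.13. Of 24 genes of cholesterol synthesis and uptake, 2 were higher and 3 lower (median -0.07), with squalene epoxidase Sqle at -0.39 ± 0.12.

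In the remaining lists no member passed the adjusted threshold. The counts below are to be read beside all genes, of which 7.15% were higher and 9.19% lower at an unadjusted p under 0.05 by edgeR. Oxidative phosphorylation had 3 of 34 genes higher at an unadjusted p under 0.05 and 0 lower by edgeR (median 0.03), with succinate dehydrogenase Sdha at 0.34 ± 0.09. Glycolysis had 1 of 18 higher and 2 lower, and hypoxia 2 of 19 higher and 4 lower. The hypoxia members differed in sign: the demethylase Kdm3a stood at 0.48 ± 0.10 and the collagen hydroxylase P4ha2 at -0.51 ± 0.10. In the NF-kB and inflammation list 5 of 26 were higher and 3 lower, or 8 and 1 without WT control replicate 2. The neutrophil chemokine Cxcl1 stood at 81.4 and 131 CPM in WT and 201 and 218 CPM in KO controls (log2 0.97 ± 0.23, adjusted p = 0.147; 1.36 and 0.0498 without WT control replicate 2), and the alarmin Il33 at 248 and 367 CPM against 151 and 193 CPM (log2 -0.84 ± 0.22, adjusted p = 0.161). Mesenchymal and matrix genes had 2 of 28 higher and 5 lower, with the gelatinase Mmp2 at 615 and 411 CPM against 176 and 278 CPM (log2 -1.18 ± 0.28, adjusted p = 0.149). Epithelial genes had 3 of 15 lower and the lowest median of the functional lists (-1.34, or -0.75 with 1 lower without WT control replicate 2), at low levels such as 2.28 and 8.11 CPM against 0.80 and 1.66 CPM for Cdh1, the cadherin of epithelial junctions (log2 -2.09, or -0.89 without that library). Unfolded protein response genes had 1 of 18 higher and 3 lower, p53 targets 1 of 16 each way, and immediate early genes 1 of 19 higher. The heat shock and the NRF2 and glutathione lists had 0 members at an unadjusted p under 0.05 by edgeR.

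The same host contrast was measured in the libraries with laparotomy, which share no library with the control contrast but share the fit. In 14 of the 17 genes the KO minus WT difference had the opposite sign with laparotomy, and none of the 17 passed the adjusted threshold there. The share of opposite signs over all tested genes was not counted, so this number has no background to be read against. Ankrd1 stood at 1.89 ± 0.22 without surgery and at -1.57 ± 0.22 with laparotomy. Nfatc4 stood at -1.88 ± 0.14 and 1.05 ± 0.14, and Olfr810 at -1.91 ± 0.24 and 1.96 ± 0.24. The 3 genes with the same sign were Il12rb1 (1.59 and 0.49), Irf1 (1.07 and 0.37) and Clstn3 (-1.27 and -0.20). The difference between the 2 effects was itself tested and passed the adjusted threshold in 99 genes (0.677%), of which 39 were positive (0.267%) and 60 negative (0.411%). It passed in 14 of the 17 genes, and not in Clstn3 (adjusted p = 0.0507), Il12rb1 (0.1005) or Irf1 (0.112). The 17 genes were chosen by the difference without surgery, which is part of this test. Their count is therefore not independent of that choice and cannot be set against the share of all genes. The count of 99 was 0 without WT laparotomy replicate 2, 1 without WT laparotomy replicate 1, 8 without KO control replicate 1 and 53 without KO laparotomy replicate 1. It was 344, 165 and 279 without WT control replicate 1, WT control replicate 2 and KO control replicate 2.

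**Figure D4:**
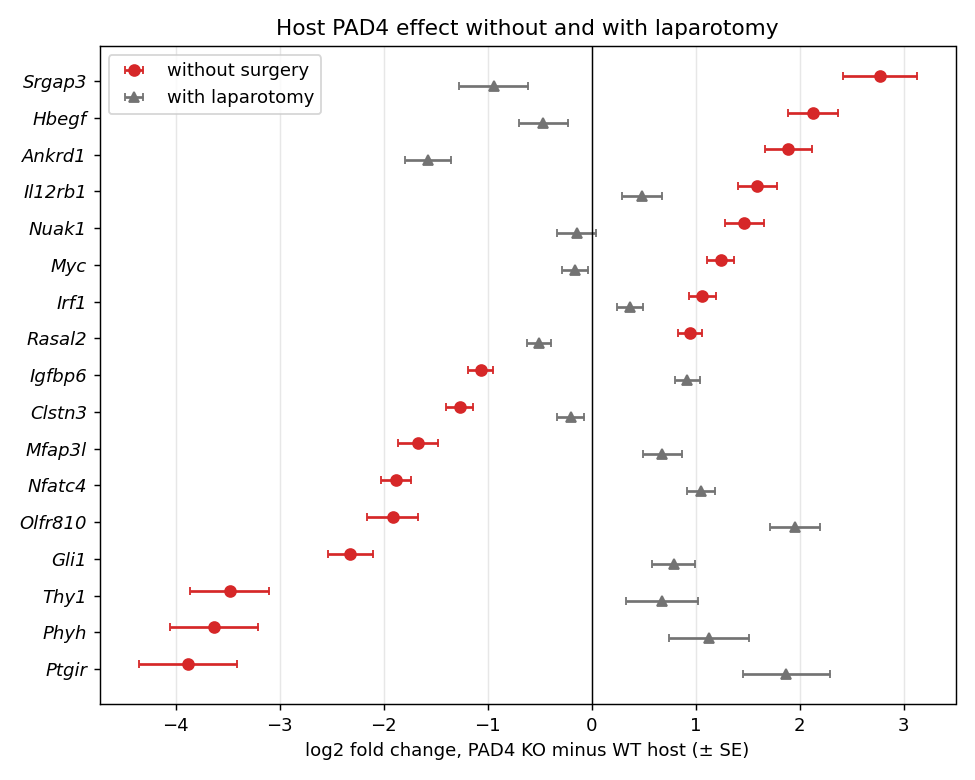
Log2 fold change of PAD4 KO minus WT hosts for the 17 genes past the adjusted threshold, without surgery (red circles) and with laparotomy (grey triangles); bars are the SE and each value rests on 2 libraries per group. The 2 effects lie on opposite sides of 0 in 14 genes, with Ankrd1 at 1.89 and -1.57, and the genes were chosen by the values without surgery.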

How the data were processed

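RNA was measured in 14 libraries, of which 4 (2 WT and 2 PAD4 KO hosts without laparotomy) form the comparison. The values deposited by the authors are raw read counts per gene symbol, made with Trimmomatic, STAR and build mm10, per the submitters' processing notes; their versions, the annotation and the library kit were not given in the sources used here. The unstranded column was used, for 24411 genes, with the 4 summary lines left out (unmapped reads were 3.999 to 11.5% of all reads, multimapping 6.14 to 9.25%). RNA extraction was by TRIzol, per the labels' protocols.

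From these counts, edgeR 4.0.16 (R 4.3.3) was run on the 8 tumour libraries in 4 groups: filterByExpr, TMM, glmQLFit with robust estimation and glmQLFTest, with Benjamini-Hochberg adjustment over 14615 genes at 0.05. There were 4 residual degrees of freedom and the common biological coefficient of variation was 0.278. A permutation test of 2 against 2 libraries cannot go below an exact two-sided p of 0.333, so none was used. CPM carry the TMM factors of the tumour fit, or of a separate fit for cultures. The SE was taken from the F statistic. Depth of 10.8 to 31.3 M counts per tumour library limits genes of a few CPM, and reads without molecular identifiers are not independent molecules.

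Named genes were the 12 largest called changes each way (control libraries averaging 5 CPM or more, groups not overlapping), the 3 smallest p of each list and the PAD family; other members named as examples were chosen after their values were seen. The 43 lists (18 of host cells, 25 of functions) hold 683 genes, of which 676 were matched. The comparison, lists and rule were chosen with earlier results of these data known. Positions are from the GRCm38 annotation, matched for 138 of 139 symbols. Replicates were not duplicates: their counts differed by 33.0 (WT) and 50.4 (KO) times the sampling variance. On simulated counts (14354 genes, 50 changed per fold size), 44% of genes raised 2-fold and 86% raised 4-fold were recovered. At 0.5-fold 38% and at 0.25-fold 66% were recovered, with 11 false calls. Only genes with a mean of at least 50 counts were changed. The simulated libraries held no shared shift of host RNA, so these shares are not recovery rates for the real libraries. Alternatives were other scaling, filters, tools (DESeq2 1.42.0, limma 3.58.1), samples in the fit, a replicate block, the strand-specific column and leaving out each library. Results for some list members are not reported here.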

Additional observations from a re-analysis of the deposited data

Results flagged for a closer look

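For 22 of the genes named above or by the naming rule, the KO minus WT difference without laparotomy itself differed from that with laparotomy, past an adjusted p of 0.05 in the edgeR fit. Values are the first log2 difference minus the second. The naming rule drew on the first difference, so the choice of genes favoured such values. Among genes higher in KO controls the value was 3.46 for Ankrd1, 3.71 for Srgap3, 2.59 for Hbegf, 1.61 for Nuak1, 1.45 for Rasal2, 1.40 for Myc and 1.18 for the demethylase Kdm3a. Among genes of signalling and matrix lower in KO controls it was -3.11 for Gli1, -2.93 for Nfatc4, -2.35 for Mfap3l and -1.99 for Igfbp6. Genes nearly silent in culture gave -5.75 for Ptgir, -4.76 for Phyh, -4.16 for Thy1 and -3.87 for Olfr810. The eicosanoid genes Ptgs1 and Alox5ap gave -5.45 and -2.83, and the complement genes Cfb, C1s1 and C1ra gave -3.37, -2.92 and -2.36. The endothelial gene Ecscr stood at -1.35 and Creld2, a chaperone of the unfolded protein response, at -1.44. Complement and eicosanoid genes were high in both the WT controls and the KO laparotomy libraries: Ptgs1 stood at 58.6 and 26.1 CPM in the former and 51.2 and 77.2 CPM in the latter, against 14.3 and 8.60 CPM in WT hosts with laparotomy.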

How the results depend on the processing

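All 17 genes kept their direction in all 18 alternatives, which reuse most or all of the libraries by which the genes were chosen. The number past the adjusted threshold did not hold. For KO against WT hosts, 97 genes were higher and 99 lower with no filter on low counts, 299 and 483 in DESeq2, 486 and 560 in the fit of all 14 libraries, and 4 and 1 in limma voom with quality weights. In edgeR on the 4 control libraries alone 0 genes passed (762 higher and 813 lower at an unadjusted p under 0.05). With the replicate block 0 passed (957 higher and 1199 lower); the numbers were not shown to pair the libraries, since the deviations of replicate 1 correlated at 0.36 between the WT and KO controls but at -0.12 to 0.07 in the other 5 pairs of groups. Leaving out 1 library gave 0 to 45 genes higher and 0 to 173 lower. Other scaling, a filter of 1 CPM and the strand-specific column gave 16 to 18 calls. For the difference between the effects, positive and negative genes numbered 177 and 222 with no filter, 394 and 737 in DESeq2, 715 and 881 with all 14 libraries, 25 and 31 with the replicate block, and 0 to 127 and 0 to 244 with 1 library left out. The cause of these moves was not tested. Directions turned in genes that had not passed. Without WT control replicate 2 the log2 fold change was positive in 12 genes, which over the 8 fits without 1 library ran from -5.40 to 0.14 for Gzma, -2.04 to 0.14 for Trp53inp1, -2.64 to 0.27 for Ciita, -3.08 to 0.52 for Ddx3y, -2.38 to 0.45 for Lck, -2.03 to 0.56 for Padi2, -5.35 to 2.18 for Cd3e, -2.06 to 0.36 for Cd74, -1.98 to 0.51 for H2-Ab1, -2.77 to 0.32 for Hspb1, -1.40 to 0.24 for Padi4 (0.002 without KO control replicate 2) and -1.36 to 0.26 for Foxj1. Without KO control replicate 2 it turned in Ccdc39 (-2.80 to 0.0226 over the fits) and Bpifa1 (-8.67 to 3.14), which voom put at -2.40.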

Other observations

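Xist, the RNA of the inactive X chromosome, stood at 37.7 and 6.07 CPM in the WT controls and at 28.1 and 17.0 CPM in the KO controls, against 0.51 CPM in control cultures. The 4 Y-linked genes Ddx3y, Eif2s3y, Kdm5d and Uty were listed at 0 in control cultures and had counts in all 8 tumour libraries. Kdm5d, for example, stood at 0.64 and 4.35 CPM in WT and 0.38 and 2.57 CPM in KO controls. Each tumour library held both kinds of transcript.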
